A study of Homo sapiens with 8 samples.

Results

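Of the 15412 PML::RARA peaks found in induced U937-PR9 cells, 7169 carried the symbol of a gene whose promoter they overlapped, and 23 of these named a CD antigen gene. The 23 peaks were chosen by symbol alone, as CD followed by digits with an optional letter or letter and digit, and they named 22 genes on 11 chromosomes. The other 7146 gene-labelled peaks, which named 6524 symbols, are the comparison throughout. No measured value entered this rule, although it was set with earlier results of these data known. The members are regions of 1 list and not replicates of a condition, so they are described by counts, medians and values, with no test.

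In U937-PR9, a derivative of the monocytic line U937, zinc switches on the expression of an introduced PML::RARA gene. Induced cells were given 100 μM ZnSO4 and uninduced cells water, each for 5 h, and Cut&Run, which releases and sequences the DNA next to an antibody-bound protein, was done with an anti-PML::RARA and an anti-RARA antibody in 2 replicates, which gave 8 libraries. All cells carry the transgene, and zinc itself is part of the induced condition. The values come from the anti-PML::RARA peaks that were reproducible between both induced replicates, and the peaks of uninduced cells and of the anti-RARA antibody were not analysed here. Since the list does not hold the replicates apart, the error between them cannot be stated, and no difference between induced and uninduced cells can be drawn from it. Sequencing depth is unknown.

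CD antigens are cell surface molecules numbered by the antibodies that recognise them, and their combinations on the surface define blood cell lineages and stages of maturation. PML::RARA is the fusion protein of acute promyelocytic leukaemia, which joins the retinoic acid receptor alpha to PML and holds myeloid cells at an immature stage. Promyelocytic blasts typically carry CD33 and lack CD14 and CD34, whereas CD14, CD36, CD68 and CD86 mark monocytes and macrophages. Retinoic acid receptors bind pairs of the short sequence AGGTCA or GGGTCA, called half-sites, and monocytic and granulocytic genes are commonly controlled by PU.1 and other ETS factors, RUNX1, C/EBP factors and AP-1.

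The sequences below show retinoid half-sites near the apexes of member peaks, where the apex is the middle of the stretch of largest signal. They were read from hg19 (GRCh37) 5′ to 3′ on the strand given, with the half-site in capitals, and are shown because the half-site is the sequence that the receptor part of the fusion is known to bind. A match is a description of the letters and not evidence of binding by the receptor part of the fusion. Of CD164, CD55, CD46 and the upstream peak of CD300C, which are among the 6 highest members, each is shown by its match nearest to the apex, and CD38, CD69, CD34 and CD47 follow for lower peaks. The CD69 stretch is short because it lies in an annotated UTR.
CD164 (chr6:109704484-109704529, minus strand): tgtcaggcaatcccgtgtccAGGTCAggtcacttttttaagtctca
CD55 (chr1:207494741-207494786, plus strand): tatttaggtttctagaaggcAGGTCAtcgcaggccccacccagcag
CD46 (chr1:207925273-207925318, minus strand): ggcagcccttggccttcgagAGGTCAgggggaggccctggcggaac
CD300C, upstream peak (chr17:72544082-72544127, minus strand): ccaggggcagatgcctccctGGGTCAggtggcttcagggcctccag
CD38 (chr4:15780687-15780732, minus strand): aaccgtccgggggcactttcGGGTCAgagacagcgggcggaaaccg
CD69 (chr12:9913436-9913463, plus strand): tagttaatctcAGGTCAagtcaagctac
CD34 (chr1:208063964-208064009, plus strand): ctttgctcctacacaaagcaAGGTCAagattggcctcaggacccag
CD47 (chr3:107810073-107810118, plus strand): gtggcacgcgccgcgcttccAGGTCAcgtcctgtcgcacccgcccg

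In the CD164 stretch the AGGTCA in capitals overlaps a second copy on the same strand. The copies lay 6 and 11 bp from the apex, in annotated exon sequence that lies upstream of CD164 and outside that gene. The CD38 half-site lay 23 bp from the apex, in intron 1 of the gene. The CD47 half-site lay 40 bp from its apex, that of CD300C 44 bp and that of CD55 63 bp. Those of CD69 and CD46 lay further off, at 83 and 124 bp. For CD34 the AGGTCA shown lay 133 bp from the apex, and a GGGTCA that is not shown lay 86 bp from it.

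Of the 82 CD genes annotated as protein-coding, 22 had a labelled peak, which is 26.8% (Wilson 95% interval 18.4 to 37.3%, for counting error only). The same label was given to 30.0% of the 20008 other protein-coding genes. A peak anywhere over the gene was found for 29 CD genes, or 35.4% (25.9 to 46.2%), against 45.1% of the others. With the apex required to lie within 1 kb of an annotated start site of the gene, 23 CD genes, or 28.0% (19.5 to 38.6%), had a peak, against 39.4% of the others. With only the canonical start site of each gene, the number was 19, or 23.2% (15.4 to 33.4%), against 35.2%. The share of the others lay inside the CD interval for the label and for any peak over the gene, and above it for both start site measures. How many of these genes are expressed in the cells was not measured by this list, and its part in these shares was not tested.

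Among the 5 monocytic markers, CD14 and CD68 had a labelled peak and CD33, CD36 and CD86 had none. These 2 of 5 genes stand beside 30.0% of other protein-coding genes with a label. A peak anywhere over the gene was found for 1 of the 5, CD68, beside 45.1% of other protein-coding genes. With only 5 genes, neither count can be called an excess or a shortfall. CD68 is a glycoprotein of lysosomes and endosomes used to stain macrophages. Its peak (chr17:7482294-7483549) spanned 1256 bp with a height of 34, the height being the largest signal in the peak, and was higher than 72.2% of the other labelled peaks. The apex lay 43 bp downstream of the nearest annotated start site of CD68 and 104 bp upstream of the canonical one. CD14, the receptor that hands bacterial lipopolysaccharide to TLR4, had the narrowest peak of all members. This peak (chr5:140014643-140014864) spanned 222 bp with a height of 17, and 0.882% of the other labelled peaks were narrower. It did not reach the gene, as its apex lay 1496 bp upstream of the nearest CD14 start site and 2021 bp upstream of the canonical one. Within 10 kb of CD14 the list held 1 other peak, labelled TMCO6, with a height of 48 over 1280 bp. Around CD68 it held a SNORA48 peak with a height of 50 and MPDU1 peaks with heights of 27 and 35, the lower of them reaching over the end of CD68. The monocytic labels therefore stood for a peak of upper-middle height at the CD68 start and a small one beyond the CD14 start, each with a higher labelled neighbour.

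CD33, the sialic acid-binding receptor targeted in myeloid leukaemia, had no peak over the gene, and none was closer than 95812 bp. For CD36, the scavenger receptor for oxidised lipids and fatty acids, that distance was 1167174 bp. For CD86, the costimulatory ligand of CD28, it was 56119 bp. None of the 3 genes had a peak within 10 kb. The absence of a peak from this list says that none was reproducible between the replicates under the threshold used, not that the protein was absent from the gene.

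The other myeloid antigens with a label were CD93, CD300A and CD300C, 3 of 11 annotated genes of this kind, or 27.3%, beside the 30.0% of other protein-coding genes with a label. CD93, a lectin-like receptor of monocytes, neutrophils and endothelium, had the widest member peak (chr20:23065431-23068367), with a width of 2937 bp, above 97.3% of the other labelled peaks. Its height of 44 was above 89.6% of them, and the apex lay 11 bp upstream of the start. CD300A and CD300C are paired inhibitory and activating receptors of myeloid cells encoded side by side with their relatives. CD300C was the 1 CD gene of 22 with more than 1 labelled peak, 4.55%, against 8.43% of the other labelled genes. The peak at its start (chr17:72541146-72542715) spanned 1570 bp with a height of 26, and the upstream one (chr17:72543704-72544202) spanned 499 bp with a height of 42, its apex 1806 bp upstream. The narrower of these peaks was therefore the higher, and its height lay 1.07 on the log2 scale above the median of other labelled peaks of like width, an excess that only CD244 matched among the members. CD300A had a peak of 487 bp (chr17:72462442-72462928) with a height of 25 and the apex 20 bp upstream of its start.

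**Figure D1:**
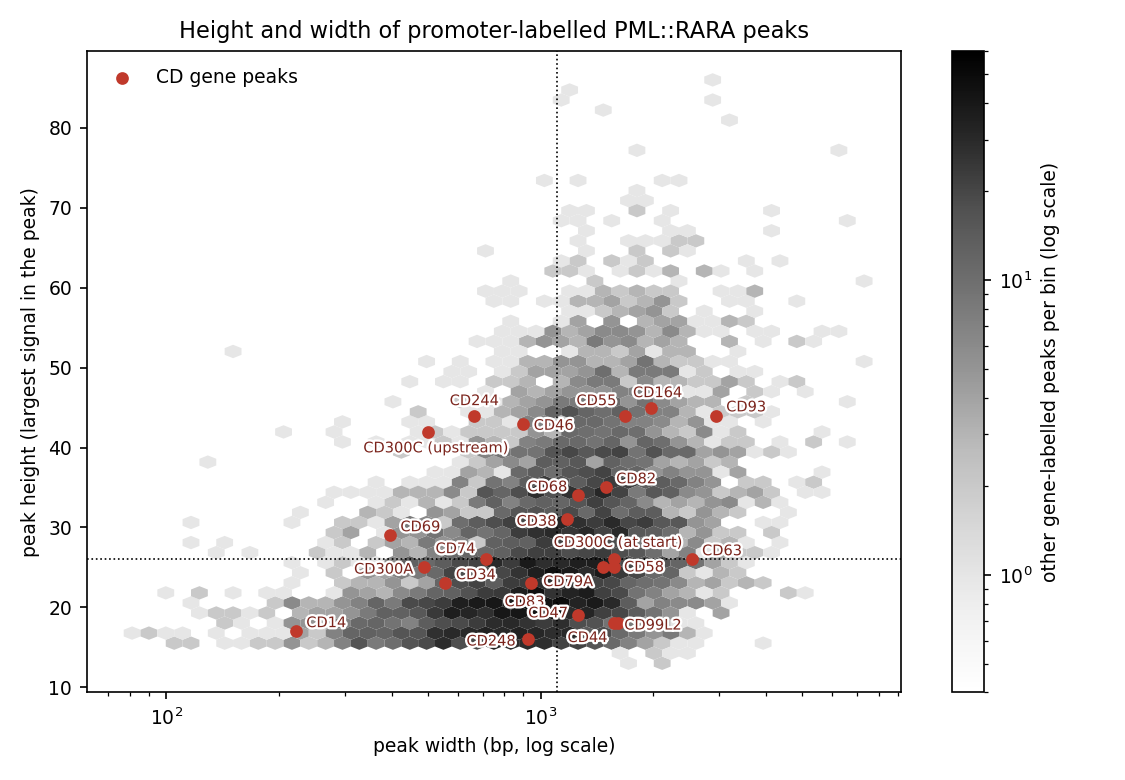
Height of each promoter-labelled peak (largest signal in the peak, linear axis) against its width in bp (log axis), with the 23 CD gene peaks as red points over the other 7146 labelled peaks, shaded by number per bin. Dotted lines mark the medians of the other peaks, 26 and 1108 bp. CD244, CD46 and the upstream CD300C peak are high and narrow, CD44 and CD99L2 are wide and low, and CD14 is the narrowest.

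Both complement regulators with a label, CD55 and CD46, had high peaks. These membrane proteins protect the cell's own surface from complement, CD55 by speeding the decay of convertases and CD46 as a cofactor for the cleavage of deposited fragments. The CD55 peak (chr1:207494248-207495924) was 1677 bp wide and 44 high, and its apex lay 38 bp upstream of the nearest start site. The CD46 peak (chr1:207925003-207925901) was 899 bp wide and 43 high, with the apex 6 bp downstream of the nearest start site. The third gene of this kind, CD59, which blocks the membrane attack complex, had no label. The share with a label was thus 66.7% of 3 genes, beside 30.0% of other protein-coding genes.

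Of 11 adhesion and self-recognition antigens, 5 had a labelled peak, or 45.5% beside 30.0% of other protein-coding genes, and they spanned nearly the full range of heights among the members. CD164, a sialomucin of haematopoietic progenitors, had the highest member peak (chr6:109702853-109704828), which reached 45 over 1976 bp. Its signal per base was 20.8, above 99.1% of the other labelled peaks. The apex lay 842 bp upstream of the CD164 start. CD58, the ligand of CD2, had a height of 25 (chr1:117112514-117114080) with the apex 373 bp downstream of the nearest start site, in intron 1. CD47, the signal that tells macrophages not to engulf a cell, had a height of 19 (chr3:107809156-107810417), and CD44, the hyaluronan receptor, one of 18 (chr11:35160391-35161998). CD99L2, a relative of the adhesion molecule CD99, also had a height of 18 (chrX:150066757-150068325). The CD47, CD44 and CD99L2 peaks were 1262, 1608 and 1569 bp wide and their log2 heights differed by -0.56, -0.74 and -0.74 from the median of other labelled peaks of like width.

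CD63 and CD82 were the labelled tetraspanins of 7, or 28.6% beside 30.0% of other protein-coding genes, a family of proteins that organise membrane microdomains. CD63, a marker of lysosomes and exosomes, had a wide peak (chr12:56121985-56124516) of 2532 bp with a height of 26 and the apex 219 bp upstream of the start. CD82, a suppressor of cell migration, had a peak of 1493 bp with a height of 35 (chr11:44586083-44587575), with the apex 208 bp upstream of the nearest start site. A second CD82 peak without a label, in intron 1 (chr11:44590084-44591250), had a height of 45 and was the highest of all unlabelled peaks over CD genes.

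Among B cell and activation antigens, 5 of 15 annotated genes had a label, or 33.3% beside 30.0% of other protein-coding genes. CD38 is an NAD-consuming surface enzyme that retinoic acid is well known to induce in myeloid cells. Its peak (chr4:15779863-15781037) had a height of 31 and covered the start, with the apex 735 bp downstream in intron 1. CD69, an early activation antigen, had a height of 29 in a peak of 396 bp (chr12:9913354-9913749), and CD74, the invariant chain of MHC class II, had one of 26 in 714 bp (chr5:149791906-149792619). CD79A, the signalling chain of the B cell receptor, had a height of 25 (chr19:42380948-42382419) with the apex 386 bp downstream of the nearest start site. CD83, a marker of mature dendritic cells, had a height of 23 (chr6:14117490-14118430) with the apex 5 bp upstream of its start.

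Of 18 T and NK cell antigens, CD244 alone had a labelled peak, or 5.56% beside 30.0% of other protein-coding genes. CD244 is a receptor of NK cells and monocytes that binds CD48. Its peak (chr1:160832154-160832818) had a height of 44 in 665 bp, 1.07 on the log2 scale above other labelled peaks of like width, and its apex lay 19 bp downstream of the start. None of the 5 lipid-presenting CD1 genes had a label or any peak over the gene, beside 30.0% and 45.1% of other protein-coding genes. Of 4 stem, endothelial and stromal antigens, CD34 and CD248 had a label, or 50.0% beside 30.0% of other protein-coding genes. The CD34 peak (chr1:208063640-208064196), with a height of 23, lay 20617 bp inside the gene in intron 4, 16 bp from the start site of a shorter transcript. At the canonical start of CD34, the marker of haematopoietic stem cells, there was no peak. CD248, a protein of stromal fibroblasts and pericytes, had the lowest member peak (chr11:66085332-66086257), with a height of 16 and the apex 1296 bp upstream of the start.

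**Figure D2:**
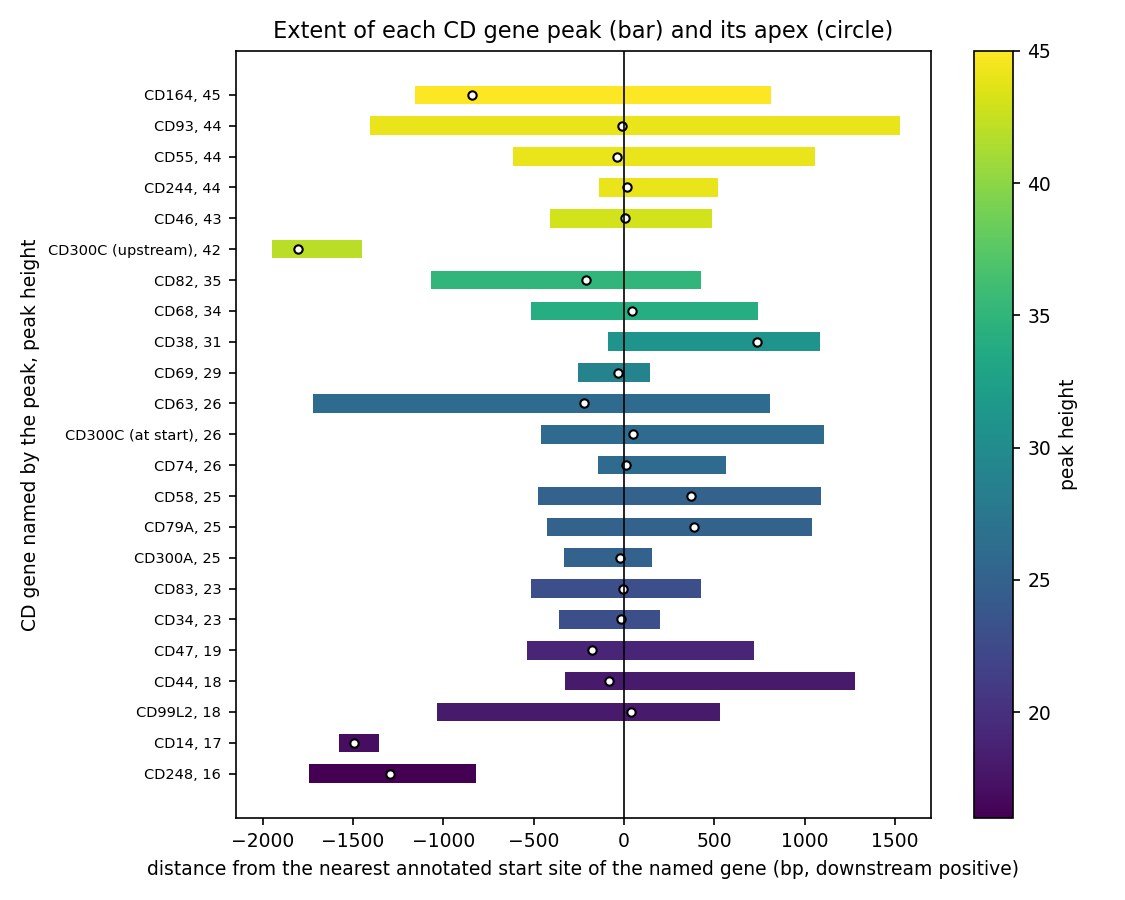
Extent of each of the 23 CD gene peaks (bar, coloured by height) and its apex (circle) in bp from the nearest annotated start site of the named gene, with downstream positive and the peaks ordered by height, which follows each name. In 20 of 23 peaks the apex lies within 1 kb of the start site, and CD14, CD248 and the upstream CD300C peak lie further upstream. CD34 is drawn from the start site of a shorter transcript inside the gene.

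As a group, the members had the same median height as the other labelled peaks. Heights of the 23 peaks ran from 16 to 45 with a median of 26 (order-statistic 95% interval 23 to 35), and the other labelled peaks ran from 13 to 86 with a median of 26. The median width was 1256 bp (714 to 1569 bp) against 1108 bp, a difference of 0.18 on the log2 scale. The median total signal was 9404 (8253 to 12880) against 10087, and the median signal per base 8.70 (6.54 to 12.4) against 9.09. Above the upper quartile of height lay 26.1% of members (12.5 to 46.5%) and 23.2% of the others, and above that of width 34.8% (18.8 to 55.1%) and 25.0%. Set against other labelled peaks of like width, in 10 width classes, 13 members were higher than the class median and 10 were lower. In each of these measures the interval for the members held the value of the other peaks.

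The apex lay within 1 kb of a start site of the named gene in 20 of 23 peaks, or 87.0% (67.9 to 95.5%), against 92.3% of the 6959 other peaks whose symbol is annotated. The median distance was 49 bp (20 to 373 bp) against 102 bp. No member had the canonical start site of another protein-coding gene within 1 kb of its apex. The Wilson interval of this share reached 14.3%, and 17.1% of the other labelled peaks had such a start site. Those peaks include labels of noncoding RNA genes, for which any protein-coding gene counted as another, so the shares are not fully alike. In every member the nearest start site of the named gene lay closer to the apex than the canonical start site of any other protein-coding gene. Alternative and noncoding start sites of other genes were not searched.

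The members differed most from the other labelled peaks in CpG content. In the 401 bp centred on the apex, the ratio of observed to expected CpG had a median of 0.486 (0.200 to 0.737) in the members and 0.808 in the others, and 4 of 23 members, or 17.4% (6.98 to 37.1%), lay above the median of the others, which 50.0% of those exceed. GC content had a median of 58.4% (56.4 to 67.1%) against 64.3%, and 34.8% of members (18.8 to 55.1%) against 49.2% of the others lay above the median of the others. The ratio was below 0.5 in 12 members, or 52.2% (33.0 to 70.8%), against 15.9% of the other labelled peaks. This split was chosen after the values were seen. CpG-poor promoters are typical of genes used in few tissues, and CpG-rich ones of genes used in most.

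The 12 CpG-poor peaks were those of CD14, CD34, CD68, CD69, CD74, CD79A, CD93, CD244, CD248, CD300A and both of CD300C. The 11 others were those of CD38, CD44, CD46, CD47, CD55, CD58, CD63, CD82, CD83, CD99L2 and CD164. The CpG-poor members had a median width of 689.5 bp and the others one of 1567 bp. Among the other labelled peaks these medians were 884 and 1138 bp. Heights did not follow the split, with a median of 26 in both sets of members and of 25 and 26 in the other labelled peaks. Both complement regulators, both tetraspanins and all 5 adhesion antigens fell on the CpG-richer side, whereas both monocytic markers and all 4 peaks of other myeloid antigens fell on the CpG-poor side.

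**Figure D3:**
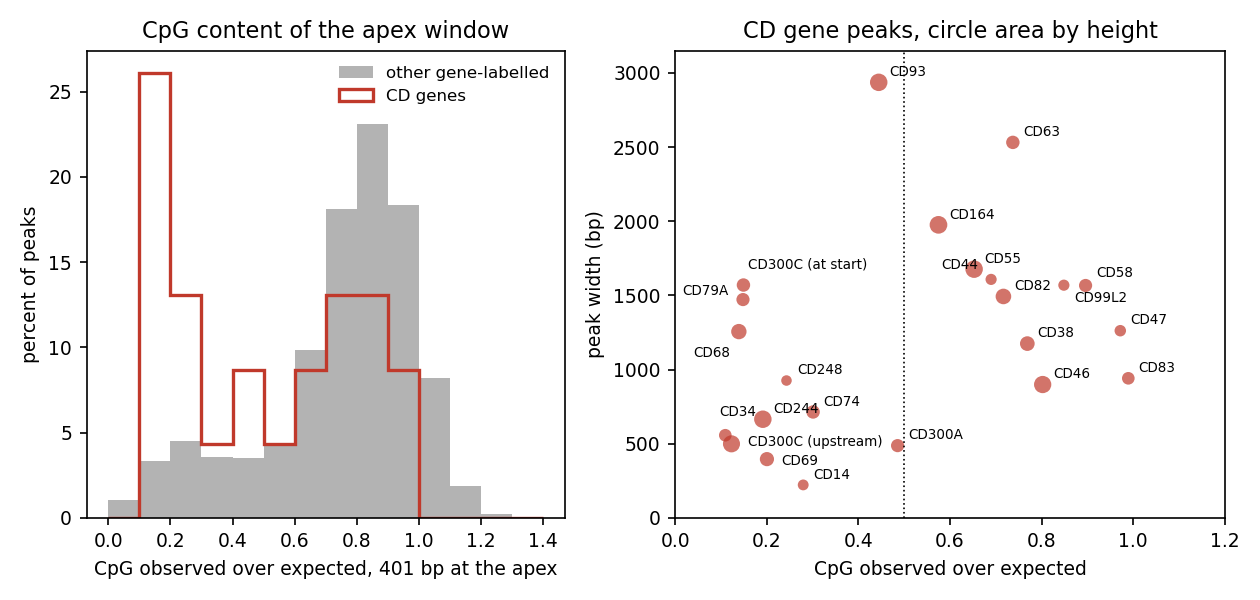
Left, percent of peaks by the ratio of observed to expected CpG in the 401 bp at the apex, for the 23 CD gene peaks (red outline) and the other 7146 labelled peaks (grey). Right, width in bp against this ratio for each member, with circle area by height and a dotted line at 0.5. Of the members, 12 lie left of the line and 11 right of it, and all but CD93 among the widest 5 lie on the right.

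A retinoid half-site, AGGTCA or GGGTCA on either strand, lay within 200 bp of the apex in 13 of 23 members, or 56.5% (36.8 to 74.4%), against 33.0% of the other labelled peaks. Counting the half-sites together was chosen after the values of each were seen. AGGTCA was found in 30.4% of members (15.6 to 50.9%) against 16.5%, and GGGTCA in 30.4% (15.6 to 50.9%) against 20.2%. At least 2 half-sites were found in 13.0% (4.54 to 32.1%) against 7.19%. The shares were also taken on each side of the CpG split. Among peaks with a CpG ratio below 0.5, 50.0% of members (25.4 to 74.6%) and 44.4% of the other labelled peaks held a half-site, and among those at or above it 63.6% (35.4 to 84.8%) and 30.8%. The half-site peaks of the second kind were those of CD164, CD55, CD46, CD38, CD63, CD47 and CD44. From the CpG-poor to the CpG-richer side the share was thus higher in the members and lower in the others, a contrast that was not tested.

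Of the other motifs, the AP-1 sequence TGANTCA was found in 17.4% of members (6.98 to 37.1%) against 7.37% of the other labelled peaks, and among CpG-poor peaks in 25.0% of members (8.89 to 53.2%) against 20.5%. It lay at CD244, CD68, CD63 and CD14, and the matches at CD244 and CD68 are shown for a high, narrow peak and a monocytic marker, the second shortened because it lies in an annotated UTR.
CD244 (chr1:160832722-160832768, plus strand): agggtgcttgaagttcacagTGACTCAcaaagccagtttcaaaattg
CD68 (chr17:7482845-7482873, plus strand): gctgaggccccTGAGTCAggctgtgggtg
The RUNX sequence TGTGGT was found in 26.1% (12.5 to 46.5%) against 15.4%, the ETS sequence GGAAGT in 30.4% (15.6 to 50.9%) against 36.7%, the PU.1-type GAGGAAGT, which contains GGAAGT, in 4.35% (0.772 to 21.0%) against 5.28%, and the C/EBP-type TTGCNNAA in 4.35% (0.772 to 21.0%) against 10.3%. The SP/KLF sequence GGGCGG was found in 60.9% of members (40.8 to 77.8%) against 76.2%. In this window the interval of the members held the share of the other peaks for these 5 motifs, AP-1 and each half-site alone. It did not for AP-1 and AGGTCA within 100 bp of the apex, where members had 17.4% (6.98 to 37.1%) against 4.69% and 21.7% (9.66 to 41.9%) against 9.25%, nor for GGGCGG within 200 bp of the peak centre, with 56.5% (36.8 to 74.4%) against 74.4%.

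**Figure D4:**
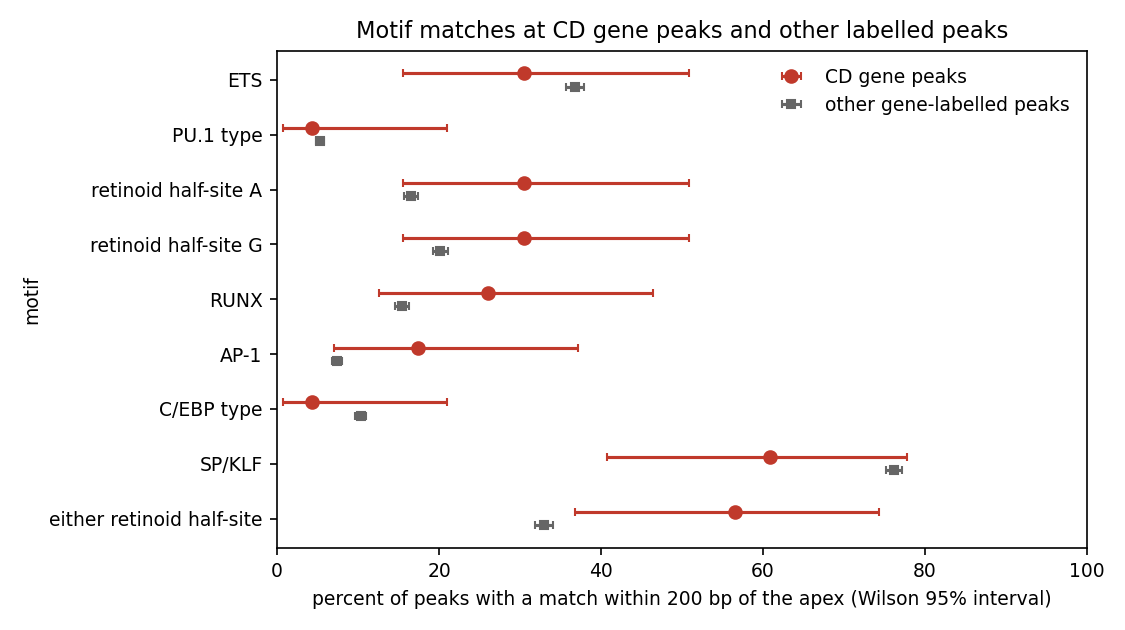
Percent of peaks with a match to each motif within 200 bp of the apex on either strand, for the 23 CD gene peaks (red circles) and the other 7146 labelled peaks (grey squares), with Wilson 95% intervals. The share for either half-site is 56.5% in the members and 33.0% in the others, and for each single motif in this window the interval of the members spans the share of the others.

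Besides the 22 labelled genes, 9 of the 60 unlabelled CD genes had a peak over the gene, which is 15.0% (8.10 to 26.1%) against 22.5% of unlabelled other genes. Of the labelled CD genes, 8 of 22, or 36.4% (19.7 to 57.0%), also had an unlabelled peak over the gene, against 20.8% of labelled other genes. In all, 23 unlabelled peaks lay over 17 CD genes, with a median height of 23 and a median width of 600 bp, and the unlabelled peaks of the whole list had medians of 23 and 634 bp. After the CD82 peak, the highest were 1 in intron 5 of CD244 (chr1:160807091-160808037) with a height of 41, 1 in intron 1 of CD276, an immune checkpoint ligand, with 37, 1 in exon 4 of CD300E with 36 and 1 in intron 2 of CD9, a tetraspanin, with 34. For CD70 and CD300E, which had no label, an apex lay within 1 kb of a start site, at 69 bp and 870 bp. These were start sites of alternative transcripts, and at the canonical start of unlabelled CD genes the list had 0 apexes within 1 kb. The share of other unlabelled genes with such an apex was not taken, so this count shows no trait of CD genes.

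Further peaks lay around the CD300 receptors, and no stretch of like length elsewhere was counted beside them. Over the 266.6 kb of chromosome 17 that hold 7 CD300 genes with 10 kb on each side, the list had 22 peaks, of which 6 carried a CD300 label and 16 none. Beside the CD300A and CD300C peaks, CD300LB had a labelled peak with a height of 22 and CD300LF had labelled peaks with heights of 45 and 21, and these symbols lie outside the naming rule. CD300H, CD300LD and CD300E had no label. The unlabelled peaks reached 42 upstream of CD300A and again near CD300LB.

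**Figure D5:**
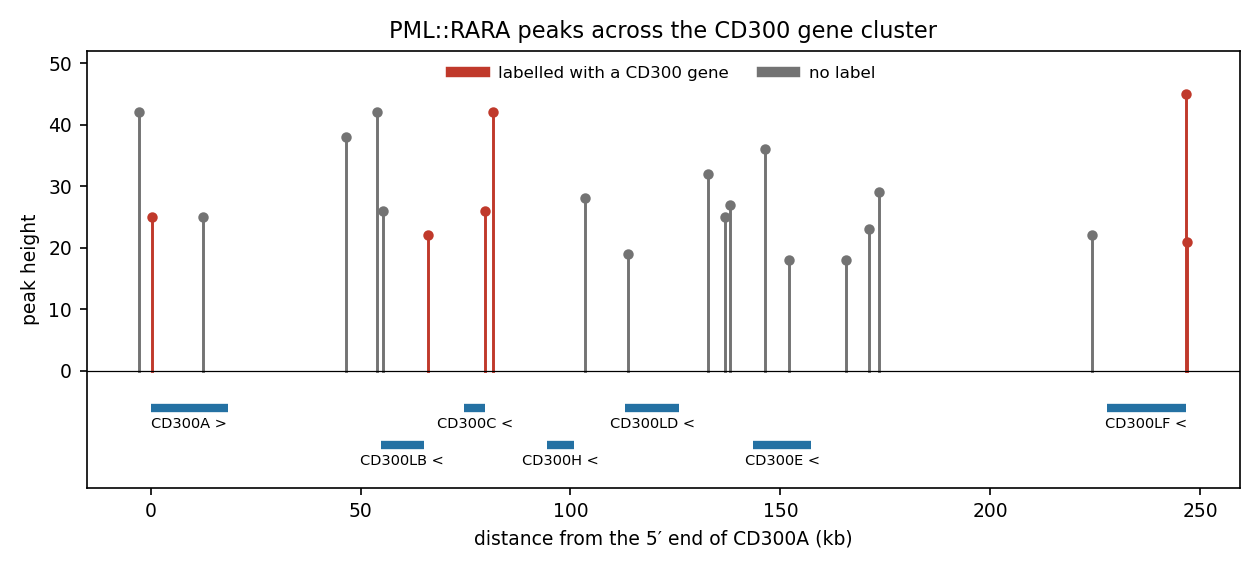
PML::RARA peaks across the CD300 genes, each drawn at its apex in kb from the 5′ end of CD300A with its height as the line length, in red where the label is a CD300 gene and in grey where there is no label. Blue bars are the genes, with arrowheads for the direction of transcription. The highest peaks are 45 at CD300LF and 42 at CD300C, upstream of CD300A and near CD300LB.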

How the data were processed

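The anti-PML::RARA Cut&Run libraries of U937-PR9 cells were processed by the authors, with Trimmomatic for trimming, Bowtie2 for alignment to hg19, SAMtools for duplicates and Bedtools for blacklisted reads. They called peaks with SEACR against paired controls and kept peaks with an IDR below 0.05 across 2 replicates. The deposited values are a total signal per peak and a score, taken as its largest signal and called the height. The header calls the total a summit, and both readings were inferred from the values, as the total lies below height times width in every peak. Any normalization of them and the replicate they describe are not given in the sources used here. Gene symbols are the authors' own promoter labels.

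Start sites, exons and introns were taken from GENCODE release 44 mapped to GRCh37 and compared at the apex. The canonical start site is that of the transcript tagged as canonical. Width classes are 10 groups of equal number. Both strands of the 401 bp centred on the apex were searched for motifs, and a CpG ratio is the CpG count times the window length over the product of C and G counts. Intervals of medians are order-statistic intervals. Genes named were the 5 monocytic markers, every labelled member, the 5 highest and widest, members with more than 1 labelled peak or a distant apex, the 5 highest unlabelled peaks over CD genes, unlabelled genes with an apex within 1 kb of a start site, and counts and the 5 highest of myeloid CD antigens with other symbols. Some genes and sequences are not reported here. The members and lists were chosen with earlier results of these data known. The functions were tested on simulated data. Python 3.11.15, pandas 2.3.3, scipy 1.17.1, pysam 0.24.0 and samtools 1.23.1 were used.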

Additional observations from a re-analysis of the deposited data

How the results depend on the processing

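No paired analysis was possible because each peak has a single value that does not belong to a replicate, so replicates could not be left out either. All 46 alternatives tried kept the members' value within the counting interval of the result or, for counts, within 1.5 times the main count. This is a wide rule for 23 peaks, and it leaves out the other peaks and genes. It therefore cannot show whether a difference from them held. The 23 peaks became 22 without CD99L2 or with peaks of 1 gene under 1 kb apart merged, and 27 with every symbol that starts with CD and a digit. They became 16 with a height, and 16 with a width, at or above the median of all 15412 peaks. These medians, 25 and 829.5 bp, lie below the 26 and 1108 bp of the other labelled peaks. The share of the other labelled peaks that reach them was not taken, so neither count of 16 can be called an excess or a shortfall. The share of CD genes with a promoter peak ranged from 23.2% with canonical start sites to 34.1% with the apex within 3 kb of any start site. The median width ranged from 1175 to 1367 bp, and the median height was 26 in each. The difference in median log2 height was 0.20 relative to other peaks of the same width class and -0.10 for total signal. With windows of 100 bp on each side, AGGTCA was found in 21.7% of members against 9.25% of others, and around the peak centre in 21.7% against 16.4%. AP-1 was found in 17.4% against 4.69% and in 13.0% against 5.74%, so the share of the other peaks moved as well and left the interval of the members for both motifs at 100 bp. The canonical start sites, the CpG split at 0.5, the counts of either and of at least 2 half-sites, and the restriction of both sets to apexes within 1 kb of a start site were chosen after seeing the data. Unknown depth and the count of 23 limit the precision of every share.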

Other observations

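Many antigens with a CD number carry another gene symbol and so lie outside the naming rule. Of 35 such antigens of myeloid cells, 34 are annotated under the symbol used, and 13 of the 34 had a labelled peak, or 38.2%, beside 30.0% of the protein-coding genes other than the CD genes. The highest were those of ITGAM, the alpha chain of the integrin CD11b/CD18, with a height of 42, of its beta chain ITGB2 and of the adhesion ligand ICAM1, with 39 each, and of the transferrin receptor TFRC, with 38. The receptor of macrophage colony-stimulating factor CSF1R, the selectin ligand SELPLG and the chemokine receptor CXCR4 had 33 each. ITGB2 had 7 peaks over the gene, 6 of them without a label, and CSF1R had 4, 3 of them without a label. Of the 34, 18 had a peak anywhere over the gene, and 45.1% of the protein-coding genes other than the CD genes had one. The 16 without a peak include ANPEP, FCGR1A, MRC1, MSR1, TLR2 and TLR4. PECAM1, which is not in the annotation under this symbol, had a labelled peak with a height of 24. The lowest peak start on chromosome X was 2846162, and CD99, IL3RA and CSF2RA lie before it, in the stretch shared with chromosome Y, where the list has no peak.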
